A study of Mus musculus with 20 samples.

Results

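The Gnas locus is an imprinted gene cluster on mouse chromosome 2, and its DNA methylation was followed here from sperm and oocytes into the pronuclei of the zygote. Its members were chosen by position: all CpG positions with at least 5 reads in 1 or more libraries inside chr2:174105000-174157000 (mm9 build), a window that spans the Nesp promoter, the Nespas and XLas promoters, exon 1A and the Gnas promoter. The rule kept 610 positions of 2262552 in the whole series, in 25 of the window's 52 bins of 1000 bp. Levels come from bisulfite sequencing of MspI fragments (reduced representation), which samples the CpG-rich part of the genome. Bisulfite does not tell 5-methylcytosine from 5-hydroxymethylcytosine, so each level is the percentage of calls that carried either mark.

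The 20 libraries fell into 10 groups of 2. The gamete groups were Sperm and Oocyte, both labelled WT and mock. The 8 pronuclear groups crossed genotype (WT or CKO), parental genome (Pat or Mat) and treatment (mock or Aphi). Zygotes came from superovulated females aged 7 to 10 weeks, either WT (f/f) or CKO (Zp3-Cre, f/-), and all were fertilised in vitro with sperm of adult C57BL/6J males. Zp3-Cre acts in the growing oocyte, so CKO removes Tet3 from the egg and every paternal genome came from a male of the same strain. In the Aphi groups, the medium held aphidicolin, which inhibits replicative DNA polymerases, at 3 µg/ml from 5 hours after fertilisation. Pronuclei were isolated at 12 hours, told apart by their size and their distance from the second polar body, and frozen at 13 hours. A pronuclear library typically pooled about 20 pronuclei and took 21 PCR cycles. Nothing in the labels says whether the 2 libraries of a group came from separate cultures, so the spread between them may be technical. The permutation p-values below rest on the levels of these libraries. Those of the test per bin (quasi-binomial) take the spread from a trend over all bins of the series, and not from the bin's own libraries. Tet3 deletion cannot be checked in these data.

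Gnas encodes the stimulatory G protein alpha subunit, which couples hormone receptors to adenylyl cyclase. Alternative promoters upstream give Nesp, a secretory protein made from the maternal allele, and XLas, a large variant of the alpha subunit made from the paternal allele. Nespas is a paternal noncoding transcript antisense to Nesp, and exon 1A starts a further paternal noncoding transcript just upstream of Gnas. The locus is known for regions around Nespas and XLas and around exon 1A that acquire methylation in the growing oocyte, while the Nesp promoter becomes methylated on the paternal allele only later in development.

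The starts of the outermost transcripts anchor the locus, and their upstream sequences are shown because the measured CpG sites inside them stayed largely unmethylated. The reference promoters are of another build (RefSeq, GRCm38.p6), so they were placed by their pattern of CpG spacing against the measured positions. The Nesp start matched at 10 measured positions, with 6 at the next best place, and fell at mm9 position 174109821. The Gnas start matched at 42, with 9 at the next best place, and fell at mm9 position 174155507. The distance between them was 45686 bases, the same as in the reference. The 250 bases before each start follow, forward strand, 5′ to 3′, with CpG sites that were measured in capitals (8 of 14 sites for Nesp and 26 of 29 for Gnas).
Nesp promoter, chr2:174109571-174109820: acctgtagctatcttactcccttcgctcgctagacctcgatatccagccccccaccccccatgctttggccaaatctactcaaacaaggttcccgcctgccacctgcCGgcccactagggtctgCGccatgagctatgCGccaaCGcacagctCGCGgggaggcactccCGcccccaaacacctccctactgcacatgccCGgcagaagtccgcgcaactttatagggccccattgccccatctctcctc
Gnas promoter, chr2:174155257-174155506: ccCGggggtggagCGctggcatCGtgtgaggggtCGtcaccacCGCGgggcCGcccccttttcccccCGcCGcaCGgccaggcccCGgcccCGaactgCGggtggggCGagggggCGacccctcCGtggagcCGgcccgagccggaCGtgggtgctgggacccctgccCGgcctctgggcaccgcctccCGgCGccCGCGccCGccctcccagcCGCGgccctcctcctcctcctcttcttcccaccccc
Both exon 1A starts of the reference, 2257 and 2238 bases before the Gnas start, could not be placed. Their best fit, with 8 matching positions against 7 at the next place, lay outside the window. Nespas, named Gnasas1 in RefSeq, has no promoter entry there, and its start lies 11116 bases downstream of the Nesp start in the reference.

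Libraries held between 22431861 and 68056783 CpG calls in all, and between 5793 and 18333 calls at kept positions of the window. The window kept 227 to 480 positions per library, at a median depth of 16 to 40 reads. Between 82.9% and 92.8% of kept positions had the same level and depth as another position within 100 bases, so neighbouring positions were largely read from the same fragments and are not independent measurements. Reads were amplified without molecular identifiers, and the level of a bin is the mean over its positions.

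Gametes divided the window into 3 kinds of bin. A bin was called oocyte-only when it had at least 75% methylation in oocytes and at most 25% in sperm, methylated in both at 75% or more in each, and unmethylated in both at 25% or less in each, with at least 2 kept positions in every gamete library. These classes were set by the gametes and are a description. The window held 6 oocyte-only bins, 0 sperm-only bins, 1 bin methylated in both gametes and 7 unmethylated in both, and 11 bins had too few gamete positions for a class. In Oocyte against Sperm 6 of 14 window bins were called higher, where 3.68% of all bins were, but these groups set the classes and nothing is read from that count. In the series as a whole, bins methylated in sperm alone far outnumbered those methylated in oocytes alone (41464 and 3116), whereas the Gnas window held no sperm-only bin.

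The oocyte-only bins formed 2 stretches. The upstream stretch, chr2:174122000-174125999, held 4 bins, and its measured oocyte positions lay 33363 to 29532 bases before the Gnas start and began 12323 bases after the Nesp start, in the part of the window named for Nespas and XLas. Of its 119 oocyte positions, 112 were methylated at 75% or more. The downstream stretch, chr2:174153000-174154999, held 2 bins with positions 2184 to 1267 bases before the Gnas start, in the part named for exon 1A. There, 50 of 51 oocyte positions were methylated at 75% or more. In Sperm no position of either stretch reached 75%, and the level over the 6 bins was 0.306% and 0.208% in its libraries against 95.1% and 97.5% in Oocyte.

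**Figure D1:**
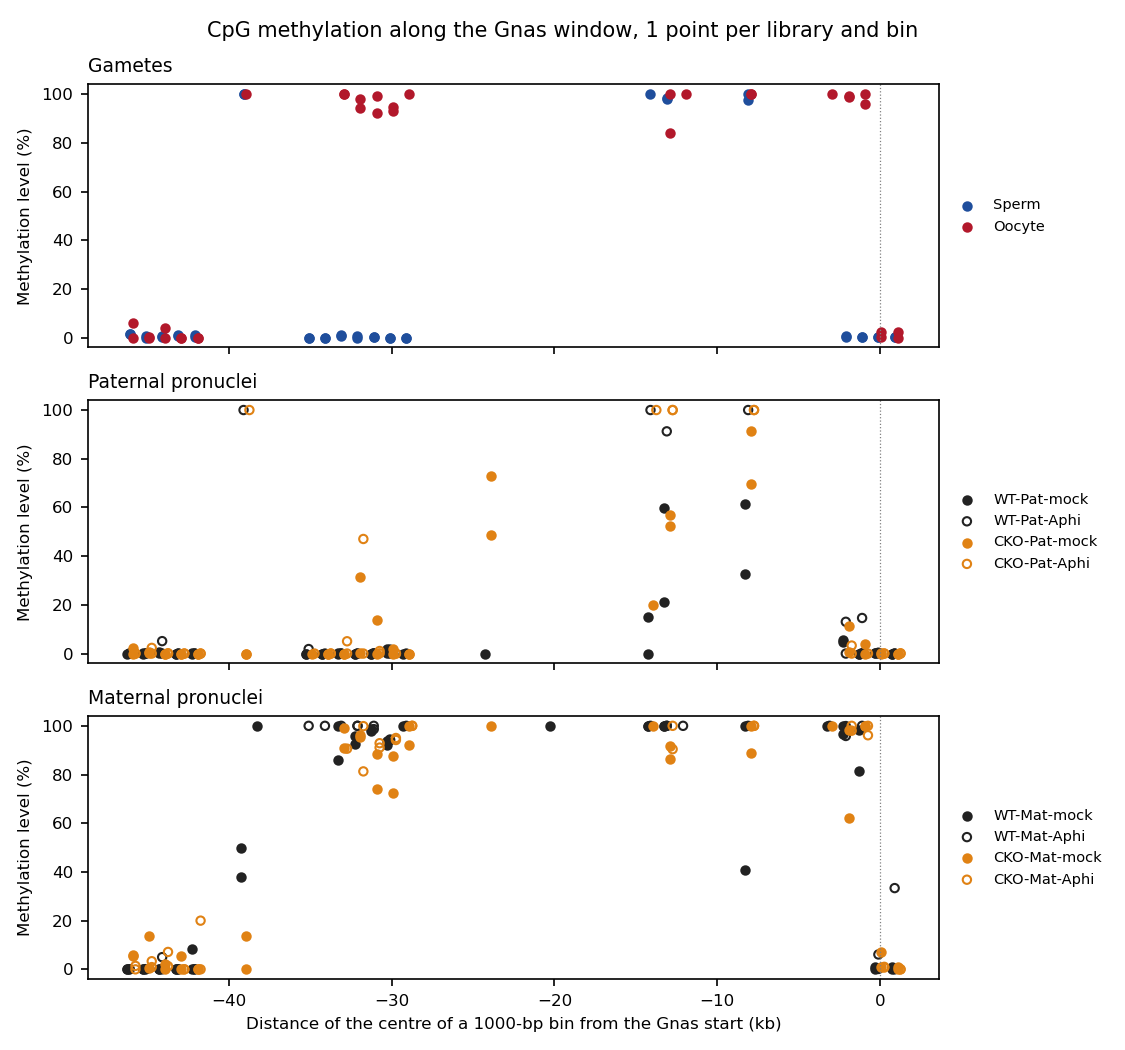
Methylation level (vertical axis, percent) in 1000-bp bins against the distance of the bin's centre from the Gnas start (horizontal axis, kb), for gametes, paternal pronuclei and maternal pronuclei, with 1 point per library and bin and open points for aphidicolin. In the bins methylated in oocytes only, paternal pronuclei are at 14.6% or less apart from 2 CKO libraries at 31.3% and 47.0%, and maternal pronuclei are between 62.2% and 100%; the bins at the Nesp end (left) and the Gnas start (dotted line) are low in nearly every library.

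Maternal pronuclei carried both stretches close to the oocyte level at 12 hours, and paternal pronuclei were much closer to the sperm level than to the oocyte level. Over the 6 oocyte-only bins, WT-Mat-mock stood at 94.7% and 95.1%, and WT-Pat-mock at 1.46% and 1.22%. No maternal library of any genotype or treatment was below 79.3%, and no paternal library was above 9.94%, so the parental genomes did not overlap. Maternal levels were 90.0 points higher within genotype and treatment (p = 0.00154 by a two-sided exact permutation test stratified by group, which is the least that 1296 arrangements can give; Benjamini-Hochberg adjusted over 7 tests, p = 0.0108), with all 16 library differences in that direction. In the fit across all bins (a quasi-binomial model, called at an adjusted p under 0.05 and at least 10 points), WT-Mat-mock was higher than WT-Pat-mock in 7 of 13 window bins, where 10.7% of all bins tested were called higher. The 7 were the 6 oocyte-only bins and the bin methylated in both gametes, described below. The 6 had been classed by the same contrast in gametes, so all bins tested are not a like background for them. Over the oocyte-only bins elsewhere in the series the median was 87.2% in WT-Mat-mock and 0.246% in WT-Pat-mock, so the contrast is not particular to this locus. WT-Pat-mock was nevertheless slightly above Sperm, by 0.912 to 1.25 points between single libraries over the 6 bins and by 2.21 to 2.87 points in the downstream stretch, with no overlap, while the upstream stretch overlapped. In the downstream bin at 174153000, pooled calls were 0.419% methylated in Sperm and 6.34% in WT-Pat-mock (quasi-binomial F test, adjusted p = 0.0353), a difference under the 10 points that a call needs.

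**Figure D2:**
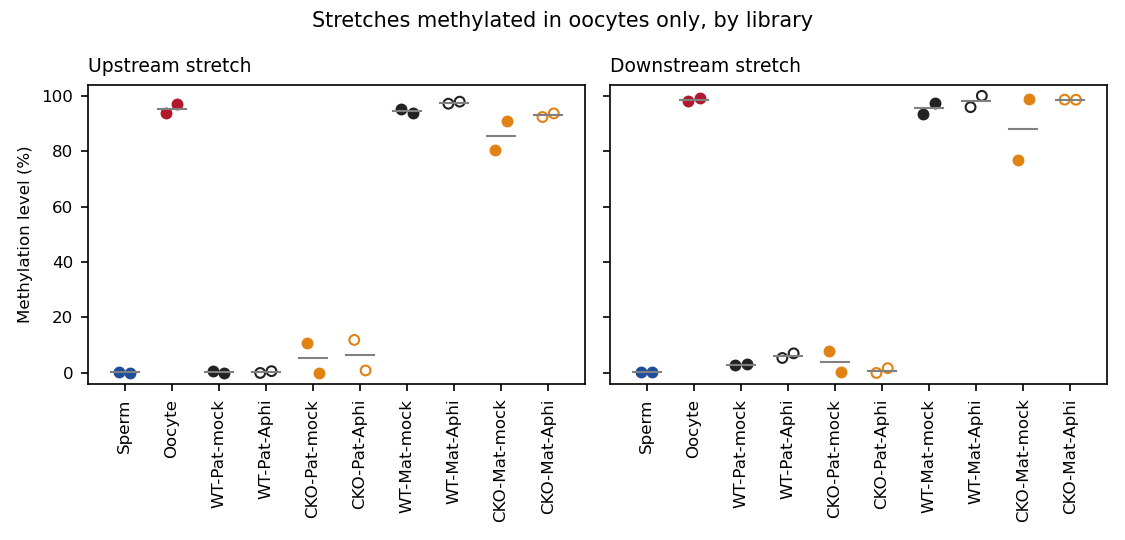
Methylation level (vertical axis, percent) of the upstream stretch (4 bins) and the downstream stretch (2 bins) in each of the 20 libraries (points, open for aphidicolin), with the mean of a group's 2 libraries as a grey line. Maternal pronuclei lie between 76.9% and 99.9% and paternal pronuclei between 0% and 11.9%.

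In WT mock zygotes the maternal copy of the stretches was within a few points of the oocyte, and no bin was called. The upstream stretch was at 94.6% ± 1.03 (SD, n = 2) in WT-Mat-mock and at 95.3% ± 2.40 (SD, n = 2) in Oocyte, and the downstream stretch at 95.5% ± 2.84 (SD, n = 2) and 98.5% ± 0.757 (SD, n = 2). The libraries overlapped over the 6 bins, where the 4 differences between single libraries ran from -2.76 to 0.0619 points, and in the upstream stretch. In the downstream stretch WT-Mat-mock was below Oocyte in all 4 library differences (-5.59 to -0.500 points), a difference that 2 libraries against 2 cannot test below the threshold. Of 14 window bins tested between these groups, 0 were called by the quasi-binomial model and 0 by limma, where 0.227% of all bins were called in either direction. At an unadjusted p under 0.05 there were 0 of the 14, and 4.09% of all bins. Over the series, oocyte-only bins as a class stood lower in the same libraries, with a median of 87.2% over 2823 bins in WT-Mat-mock. Of those bins, 76.5% were below the upstream stretch and 80.1% below the downstream stretch, so both Gnas stretches lay above most of their class, as a description with no test. In WT-Mat-Aphi the stretches stood at 97.4% and 97.9% and the class median was 98.6% over 2102 bins, of which 44.3% and 46.4% were below them.

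**Figure D3:**
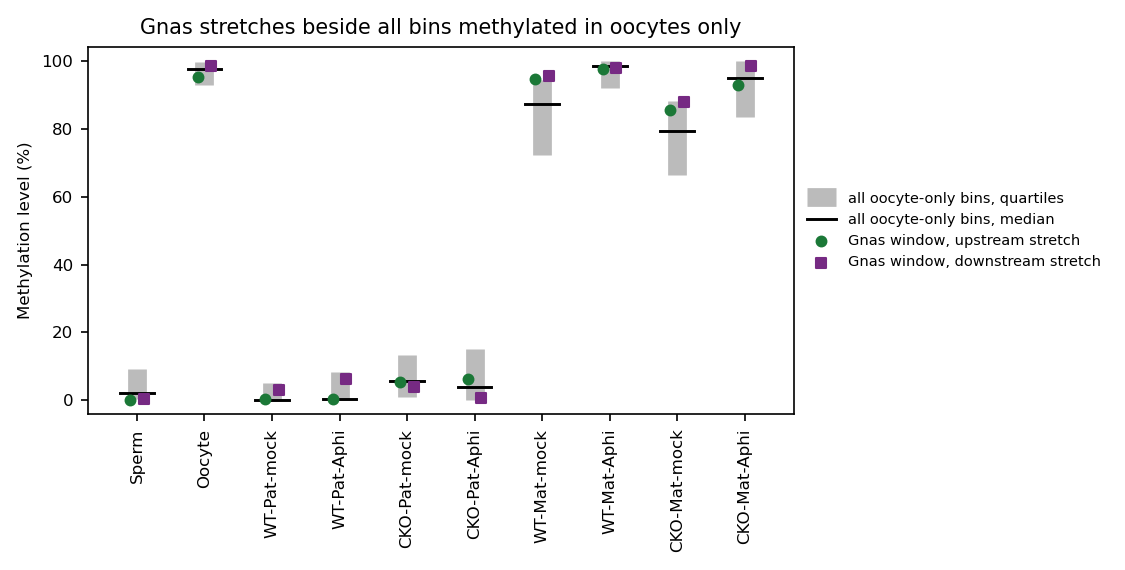
Mean methylation level (vertical axis, percent) of the upstream (circles) and downstream (squares) Gnas stretches in the 10 groups, beside all bins of the series methylated in oocytes only (grey bars, lower to upper quartile; black lines, median). In WT-Mat-mock the stretches are at 94.6% and 95.5% and the class median is 87.2%; in WT-Mat-Aphi the class median is 98.6%.

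The 5 bins elsewhere in the genome whose 10 group means came closest to those of the oocyte-only Gnas bins, among 40507 compared, were chr5:66418000-66418999, chr1:93147000-93147999, chr10:75130000-75130999, chr5:132013000-132013999 and chr2:32597000-32597999. Their mean absolute difference from the Gnas bins was between 1.06 and 1.37 points over the 10 groups. The closest, on chromosome 5, ranged from 0.0217% to 5.25% in the paternal groups and from 82.2% to 98.1% in the maternal groups. No gene is named for these bins, since an annotation of the mm9 build was not used here.

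Over the oocyte-only bins as a whole, maternal levels were higher with aphidicolin than without in every pair of libraries, but the test had too few arrangements to pass. Over the 6 oocyte-only bins the levels were 96.7% and 98.4% in WT-Mat-Aphi against 94.7% and 95.1% in WT-Mat-mock, and 95.3% and 95.5% in CKO-Mat-Aphi against 79.3% and 93.2% in CKO-Mat-mock. All 8 differences between single libraries were upward, and treated libraries did not overlap mock libraries of the same genotype. The levels do not rest on like positions, since treated libraries kept fewer of them. WT-Mat-Aphi kept 86 and 84 against 144 and 171 in WT-Mat-mock, and CKO-Mat-Aphi 86 and 98 against 153 and 117 in CKO-Mat-mock. The mean difference of 5.89 points did not pass the adjusted threshold (two-sided exact permutation within genotype, p = 0.0556, which is the least that 36 arrangements can give; adjusted p = 0.130). It was 2.65 points in WT and 9.13 in CKO, and the mean over both was 2.42 points without the first CKO-Mat-mock library and 9.37 without the second. The upstream stretch was higher in every pair as well, whereas in the downstream stretch the libraries overlapped, with differences from -1.66 to 6.44 points in WT and from -0.341 to 21.7 in CKO. For comparison, the median over all oocyte-only bins was 98.6% in WT-Mat-Aphi and 87.2% in WT-Mat-mock, and 94.9% in CKO-Mat-Aphi and 79.3% in CKO-Mat-mock. In the bin test of WT-Mat-Aphi against WT-Mat-mock, 0 of the 4 oocyte-only bins tested were called, the first WT-Mat-Aphi library having no calls in the bins at 174122000 and 174154000, and 1 of 12 window bins was, beside the Gnas start, where 0.374% of all bins were called higher. In simulated counts for this comparison, the model called 7 of 59 falls of 60 points and 0 of 59 falls of 40 points, in a step of 85745 bins. These were falls, placed in bins at 75% or more over all groups together. Power for a rise in the oocyte-only bins was therefore not measured.

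Over the oocyte-only bins as a whole, CKO maternal pronuclei were below WT maternal pronuclei of the same treatment, with 1 library well apart. CKO-Mat-mock stood at 79.3% and 93.2%, and CKO-Mat-Aphi at 95.3% and 95.5%. The difference of CKO from WT was -5.42 points within treatment, with 8 of 8 library differences downward (two-sided exact permutation within treatment, p = 0.0556, adjusted p = 0.130). The first CKO-Mat-mock library had 108 of 153 positions at 75% or more and 18 at 25% or less, whereas the second had 106 of 117 and 4. The upstream stretch alone was lower in every pair, whereas in the downstream stretch the libraries overlapped in mock (-20.6 to 5.37 points) and in aphidicolin (-1.41 to 2.71 points, with means of 98.5% in CKO and 97.9% in WT). In the first CKO-Mat-mock library the upstream stretch was at 80.5% and the downstream stretch at 76.9%. Without it the difference was -1.95 points, and without the second it was -8.90 points. The same library had the largest Y chromosome share of calls among maternal libraries, at 0.00297%, against 0.0111% and 0.0117% in Sperm and at most 4.41e-05% in Oocyte. Bins methylated in sperm alone had a mean level of 9.24% and 12.2% in the CKO-Mat-mock libraries and 3.85% and 4.41% in WT-Mat-mock. The second CKO-Mat-mock library had a Y share of 0.000296%. The first CKO-Mat-Aphi library, at 95.3% over the oocyte-only Gnas bins, had the next largest Y share (0.00163%) and a mean of 9.74% in sperm-only bins. Over oocyte-only bins of the series the library medians were 78.4% and 83.5% in CKO-Mat-mock and 87.3% and 89.4% in WT-Mat-mock. The part of these values in the lower level was not tested.

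Of 16 window bins tested between CKO-Mat-mock and WT-Mat-mock, 0 were called by the quasi-binomial model and 0 by limma, where 0.123% of all bins were called in either direction. At an unadjusted p under 0.05 there were 4 of the 16, and 6.02% of all bins. These 4 were the bins at 174124000 (-12.4 points, pooled calls), 174125000 (-12.8) and 174153000 (-14.0, adjusted p = 0.0800), all oocyte-only, and the Gnas promoter bin at 174155000 (4.22 points higher). In CKO-Mat-Aphi against CKO-Mat-mock, 0 of 14 window bins were called by the model and 0 by limma, where 0.394% of all bins were called in either direction, and 3 had an unadjusted p under 0.05, as did 9.27% of all bins. Power was not simulated for these comparisons.

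Paternal pronuclei were low at the stretches, with methylated positions in some libraries of both genotypes. Over the 6 bins WT-Pat-Aphi was at 1.81% and 3.13%, CKO-Pat-mock at 9.77% and 0.165%, and CKO-Pat-Aphi at 9.94% and 1.20%. In each CKO group 1 library was near 10% and the other near the WT level, so over the 6 bins the CKO libraries overlapped those of WT mock and WT Aphi. In the upstream stretch alone, CKO-Pat-Aphi was above WT-Pat-Aphi in all 4 library differences (0.247 to 11.9 points), whereas the mock libraries overlapped. Among WT libraries, the second of WT-Pat-Aphi had 4 of 56 downstream positions at 75% or more, and the downstream stretch was at 5.40% and 7.07% in WT-Pat-Aphi against 0% (with no calls at 174154000) and 1.72% in CKO-Pat-Aphi. The difference of CKO from WT was 3.37 points (exact permutation p = 0.5, adjusted p = 0.5). That of Aphi from mock was 0.870 points (exact permutation p = 0.389, adjusted p = 0.454). The latter turned to -1.31 points without the first CKO-Pat-Aphi library and to -1.53 without the second CKO-Pat-mock library. Neither test could pass, since 36 arrangements give an exact permutation p of 0.0556 at the least. At the 9 oocyte-only positions with 5 or more reads in all 20 libraries the differences were -2.64 and -8.00 points. Over all oocyte-only bins of the series the library medians were 7.14% and 0.111% in CKO-Pat-mock and 0.631% and 0% in CKO-Pat-Aphi. The library means were 13.0% and 7.06% in CKO-Pat-mock and 13.4% and 8.15% in CKO-Pat-Aphi. In both groups the first library was thus higher than its partner far beyond this locus. The Y chromosome share of calls was 0.00752% and 0.0186% in the CKO-Pat-mock libraries and 0.00597% and 0.0127% in those of CKO-Pat-Aphi. In the WT paternal libraries it was between 0.0150% and 0.0219%. The part of these values in the higher levels was not tested.

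Among the oocyte-only bins, the highest paternal level was in CKO libraries at chr2:174123000-174123999. It stood at 31.3% and 0.229% in CKO-Pat-mock and at 47.0% and 0% in CKO-Pat-Aphi, and at 0% in all 4 WT paternal libraries. In the first CKO-Pat-Aphi library 8 of its 23 positions, between 174123479 and 174123521, were at 100% with 19 to 35 reads, 6 were at 47.0% with 134 reads each, and 9 were at 0%. The first CKO-Pat-mock library had 6 of 20 positions at 100%, with 12 to 16 reads, and 14 at or below 13.3%. These libraries were looked at by position after their values were seen. The bin was called higher in CKO-Pat-Aphi against WT-Pat-Aphi (0% to 25.4% of pooled calls, quasi-binomial F test, adjusted p = 0.00459), the sole call among 11 window bins, where 0.0892% of all bins were called higher. It was also called against CKO-Pat-mock (5.37% to 25.4%, quasi-binomial F test, adjusted p = 0.0346). Both calls rest on the first CKO-Pat-Aphi library: without it the level of CKO-Pat-Aphi was 0%, and limma, which takes in the spread between a bin's own libraries, made neither call. The call against WT-Pat-Aphi was also lost without its second library, and that against CKO-Pat-mock without its second library, though the bin stood near 0% in both of those.

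The only bin of the window methylated in both gametes and measured well enough for a class was chr2:174142000-174142999, which begins 13507 bases before the Gnas start, and here mock paternal pronuclei were lower than sperm. Sperm stood at 98.6% and 98.2% (6 and 7 positions), Oocyte at 100% and 83.9%. WT-Pat-mock was at 21.0% and 59.8%, and CKO-Pat-mock at 56.8% and 52.3%. With aphidicolin the paternal levels were 91.3% in the second WT-Pat-Aphi library, the first having no kept position there, and 100% in both CKO-Pat-Aphi libraries. Every mock paternal library was below every aphidicolin one and below both Sperm libraries, while the CKO and WT mock libraries overlapped.

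WT-Pat-mock was lower than Sperm in this bin (98.3% to 48.8% of pooled calls, quasi-binomial F test, adjusted p = 0.00808), 1 of 15 window bins called, where 21.3% of all bins were called lower. The call was lost without the first WT-Pat-mock library or without either Sperm library. CKO-Pat-Aphi was higher than CKO-Pat-mock (67.3% to 100% of pooled calls, quasi-binomial F test, adjusted p = 0.0267), 1 of 2 calls among 12 window bins, where 13.1% of all bins were called higher, and this call was lost whenever any of the 4 libraries was left out. Between WT-Pat-Aphi and WT-Pat-mock 0 of 12 window bins were called by the model and 0 by limma, where 10.7% of all bins were called in either direction, and 1 had an unadjusted p under 0.05, as did 23.8% of all bins, but this bin could not enter, having a single covered WT-Pat-Aphi library. The mean difference with aphidicolin over both genotypes was 48.2 points (two-sided exact permutation of 7 libraries within genotype, p = 0.111, which is the least that 18 arrangements can give; adjusted p = 0.194), upward in 6 of 6 library differences. For CKO against WT it was 11.4 points (exact permutation p = 0.278, adjusted p = 0.389), upward in 4 of 6, and 0 of 13 window bins were called in CKO-Pat-mock against WT-Pat-mock by the model or by limma, where 0.271% of all bins were called in either direction, and 1 had an unadjusted p under 0.05, as did 8.96% of all bins.

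On the maternal side the same bin stayed high. It was at 100% in all WT-Mat-mock and WT-Mat-Aphi libraries, at 86.5% and 91.8% in CKO-Mat-mock, and at 100% and 90.4% in CKO-Mat-Aphi. WT-Mat-mock was higher than WT-Pat-mock (48.8% to 100% of pooled calls, quasi-binomial F test, adjusted p = 0.0110), a call lost without either WT-Mat-mock library. Among all bins methylated in both gametes the group median was 50.0% in WT-Pat-mock, 65.0% in CKO-Pat-mock, 99.7% in WT-Pat-Aphi and 100% in CKO-Pat-Aphi, and 36.2% and 28.1% of them lay below this bin in the first 2 of these groups.

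A thinner bin at chr2:174147000-174147999, with at most 2 kept positions per library, had paternal levels in the same order. Sperm was at 97.6% and 100% and Oocyte at 100% in both. WT-Pat-mock was at 61.5% and 32.7%, CKO-Pat-mock at 91.4% and 69.4%, and the 3 covered paternal aphidicolin libraries at 100%. In this bin both CKO mock libraries were above both WT mock libraries, on 48 to 108 calls each, and the maternal libraries were at 89.0% or more apart from the first WT-Mat-mock library, at 40.7%. It was picked out after its values were seen.

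**Figure D4:**
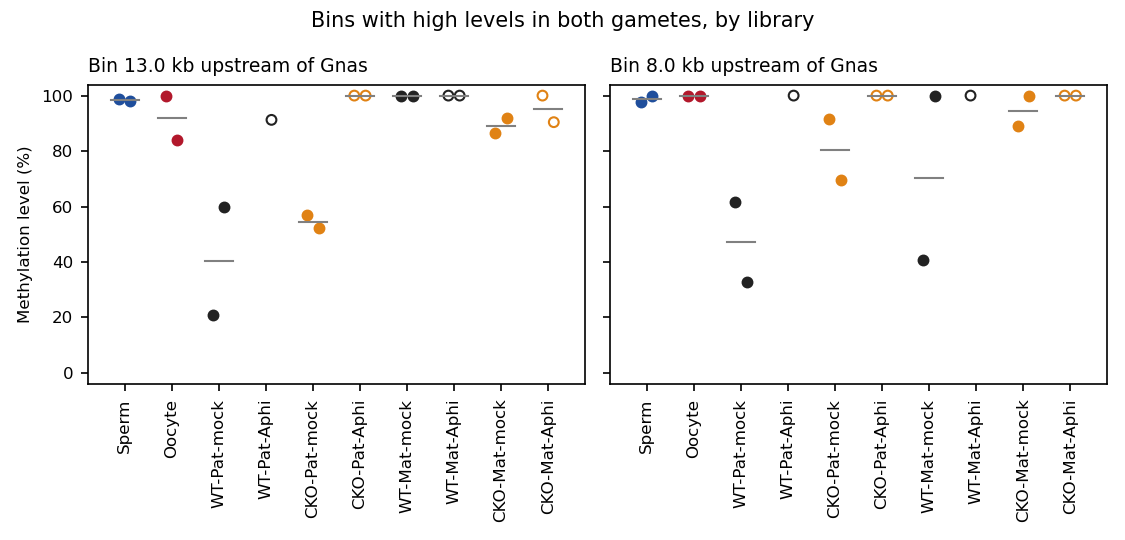
Methylation level (vertical axis, percent) in each library (points, open for aphidicolin; grey line, mean of 2 libraries) for the bin methylated in both gametes (left) and the thinner bin nearer to Gnas (right). Paternal mock libraries lie between 21.0% and 59.8% on the left and between 32.7% and 91.4% on the right, and paternal aphidicolin libraries at 91.3% or more.

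The Nesp promoter was low on both parental genomes at this stage. Over the 250 bases shown, levels ran from 0% to 6.06% in the 19 libraries that covered it, with a median of 0%, and 98 of 6992 calls were methylated. The highest libraries were the first of Oocyte at 6.06% and those of CKO-Mat-mock at 5.47% and 5.93%. The highest paternal library, the second of CKO-Pat-mock, was at 2.17%, and all 3 covered paternal libraries of WT were at 0%. Over the 5 bins of the Nesp end, chr2:174109000-174113999, libraries lay between 0% and 3.57%, apart from the second CKO-Mat-mock library at 9.07%. In that library 7 of 54 positions of chr2:174110000-174110999 were at 100%, with 7 to 15 reads, and the other 47 were at 16.3% or less.

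The Gnas promoter was likewise low in nearly every library. Over the 250 bases shown, levels ran from 0% to 21.4% with a median of 0%, and 117 of 12792 calls were methylated. The libraries above 1% were the second of Oocyte, at 10.1% with 6 of 21 positions above 25%, and the first of WT-Mat-Aphi, at 21.4% with 3 of 14 positions above 25%. Every paternal library was at or below 0.112%. Over the 2 bins of the Gnas start, chr2:174155000-174156999, the first WT-Mat-Aphi library was at 14.1% and the second CKO-Mat-mock library at 5.66%, and all others were between 0% and 1.80%. The exon 1A stretch, whose last measured oocyte position was 1267 bases before the Gnas start, lay next to a promoter with levels near 0% within the same maternal libraries.

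The calls beside the Gnas start rest on that first WT-Mat-Aphi library. In chr2:174156000-174156999 it was at 33.4%, against 0% in the second library, and pooled calls were higher than in WT-Mat-mock (0.527% to 34.5%, quasi-binomial F test, adjusted p = 2.56e-05) and than in CKO-Mat-Aphi (34.5% to 0%, quasi-binomial F test, adjusted p = 5.25e-05). The latter was 1 of 12 window bins called, where 0.114% of all bins were called lower. Without that library both groups of each comparison were near 0% and neither call was made, and limma made neither call. The second was also lost without the first CKO-Mat-Aphi library, with a level of 0% in that group either way. Within the library, 9 of 33 positions, between 174156007 and 174156091, were at 97.5% to 100% with 40 to 56 reads. At CpG sites where both strands could be identified the forward strand was at 66.4% over 9 positions and the reverse strand at 0% over 8.

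**Figure D5:**
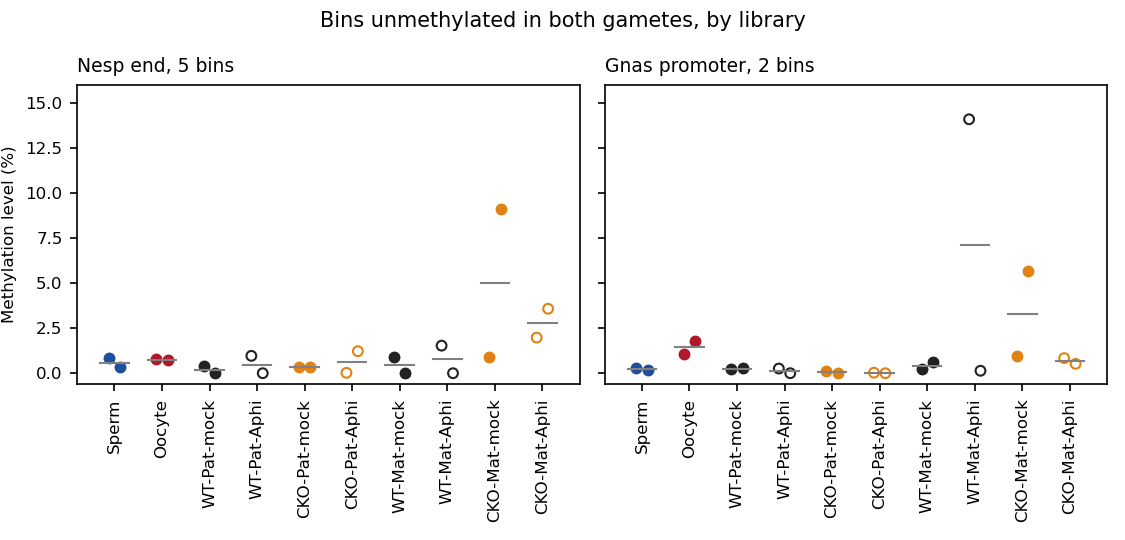
Methylation level (vertical axis, percent, up to 16) in each library (points, open for aphidicolin; grey line, mean of 2 libraries) for the 5 bins of the Nesp end and the 2 bins of the Gnas start. At the Nesp end the highest libraries are of CKO-Mat-mock (9.07%) and CKO-Mat-Aphi (3.57%), and at the Gnas start of WT-Mat-Aphi (14.1%) and CKO-Mat-mock (5.66%); all others are at 1.97% or less.

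Outside the named bins, coverage was thin. Upstream of the Nespas and XLas stretch, the bins at 174120000 and 174121000 were at 0% in Sperm and from 0% to 1.85% in the paternal libraries that covered them, and at 100% in the single maternal library that did, the second of WT-Mat-Aphi, on 36 calls each. If the reference distance of 11116 bases from the Nesp start holds in mm9, the Nespas start falls in the bin at 174120000, and not in the stretch. The bin at 174126000, which borders the same stretch downstream, was at 0% in every covered paternal library and at 92.1% or more in every covered maternal library. Parental levels in these 3 bins differed in the same direction as within the stretch, without a test. The bin at 174116000, between the Nesp end and the stretch, was at 100% in both Sperm libraries but on 6 and 7 calls. It was at 0% in both CKO-Pat-mock libraries on 20 and 86 calls. The single covered library each of Oocyte, WT-Pat-Aphi and CKO-Pat-Aphi was at 100%, on 8, 44 and 15 calls. Maternal mock libraries were below 100% as well. They ran from 38.0% to 50.0% in WT-Mat-mock (89 calls together) and from 0% to 13.9% in CKO-Mat-mock (84 calls together).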

How the data were processed

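Per the labels, pronuclear libraries typically came from about 20 hand-isolated pronuclei. Reads were trimmed (Trim Galore) and aligned to mm9 (Bismark 0.10.1), per the submitters' processing notes. Whether duplicates were removed is not stated there. The deposited files give, per CpG position and strand, the authors' count of methylated and unmethylated calls and a deposited percent that equals 100 times methylated over all calls. Members, lists and tests were chosen with earlier results of these data known. Levels are means over positions with at least 5 reads. Bins with at least 2 such positions and 10 calls per library were tested on pooled calls with a quasi-binomial logistic model in 1 fit of 10 groups, dispersion shrunk with limma 3.58.1 (R 4.3.3), an F test and Benjamini-Hochberg adjustment over all bins; called at adjusted p under 0.05 and 10 points. Shrinkage put every bin on the trend (median dispersion 30.5 over 172210 bins), so a bin's own spread between libraries did not enter; limma on arcsine square roots was the alternative. The model was tested on simulated counts. Levels over several libraries were compared by 7 exact stratified permutation tests; 2 libraries against 2 were described. Named bins were all oocyte-only and both-gamete bins, called bins, promoter bins and the 5 most alike. Promoters were placed on positions with at least 5 reads and inside the window, a restriction added after a stray position of 1 library had blocked the Gnas match. Other imprinted genes of the plan need an mm9 annotation and were not analysed here. Same-numbered libraries were not treated as pairs.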

Additional observations from a re-analysis of the deposited data

How the results depend on the processing

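The maternal over paternal difference at the oocyte-only bins lay between 88.2 and 91.7 points, with an adjusted p between 0.00772 and 0.0391, over 27 alternatives. Of 135 alternatives of the 7 permutation tests, 131 kept their direction and side of the threshold and 4 reversed. For every test but the maternal over paternal one, the exact permutation p could be 0.0556 at the least. Their side of the threshold was therefore fixed, and only their direction could change. In paternal pronuclei over the oocyte-only bins, the aphidicolin difference was -8.00 points and the Tet3 CKO difference -2.64 points at positions shared by all 20 libraries, and the aphidicolin difference ranged from -1.53 to 3.27 points when single libraries were left out. The cause was not tested. With single libraries left out, the called window bins, in either direction, ranged from 0 to 1 for WT-Pat-mock against Sperm, WT-Mat-Aphi against WT-Mat-mock, CKO-Pat-mock against WT-Pat-mock, CKO-Mat-mock against WT-Mat-mock, CKO-Pat-Aphi against CKO-Pat-mock, CKO-Pat-Aphi against WT-Pat-Aphi, CKO-Mat-Aphi against CKO-Mat-mock and CKO-Mat-Aphi against WT-Mat-Aphi. For CKO-Pat-Aphi against CKO-Pat-mock, the 1 call without the second CKO-Pat-mock library was downward, whereas the 2 calls with all libraries were upward. Over the same leave-outs the difference at bin 174156000 ranged from -38.7 to 0 points (CKO-Mat-Aphi against WT-Mat-Aphi) and from -0.527 to 38.2 points (WT-Mat-Aphi against WT-Mat-mock), and at bin 174123000 from -5.37 to 30.8 points (CKO-Pat-Aphi against CKO-Pat-mock) and from 0 to 36.1 points (against WT-Pat-Aphi), the values at 0 or of opposite sign being those without the first WT-Mat-Aphi or the first CKO-Pat-Aphi library. With dispersion from groups of 1 parent, CKO-Pat-Aphi had 1 call against CKO-Pat-mock and 0 against WT-Pat-Aphi. With 500-bp bins, CKO-Pat-Aphi against CKO-Pat-mock and WT-Pat-mock against Sperm had 0 calls. With limma, calls were 1 for CKO-Pat-Aphi against CKO-Pat-mock and 0 for WT-Mat-Aphi against WT-Mat-mock, CKO-Pat-Aphi against WT-Pat-Aphi and CKO-Mat-Aphi against WT-Mat-Aphi. The replicate block, run with limma, gave the same 1, 0, 0 and 0 calls; deviations of same-numbered libraries correlated between -0.0105 and 0.0310 over 12 comparisons, so the numbers do not pair the libraries. Depth limits the bins outside the named ones, and 2 libraries per group limit every comparison.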
